A study of Homo sapiens with 4 samples.

Results

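ABC transporters are membrane proteins that use ATP to move lipids, conjugated metabolites, nucleotides, peptides or drugs across a membrane, and a few members of the family have no membrane part and work on ribosomes. Here they are the protein-coding genes whose symbol begins with ABCA, ABCB, ABCC, ABCD, ABCE, ABCF or ABCG and a number, 46 of the 22985 named genes in the deposited tables. The libraries labelled C4-2 come from a castration-resistant subline of LNCaP, and are labelled CRPC. Those labelled LNCaP come from the parent line, which was derived from a lymph node metastasis, and are labelled as primary cancer. Each line has 2 libraries of total RNA depleted of ribosomal RNA, and both lines grew in RPMI medium whose serum had been steroid-depleted with charcoal. No drug, transgene or knockdown is named for either line.

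ATP binding and hydrolysis at a pair of nucleotide-binding domains drive the transport cycle of these proteins. In prostate cells the family is best known for ABCC4, also called MRP4, which exports cyclic nucleotides, prostaglandins and steroid conjugates. Other members carry cholesterol out of cells, bring fatty acids into peroxisomes, serve haem metabolism in mitochondria or split ribosomes after translation.

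Titles and stored names contradict each other, since each table is stored under the name of the opposite line. Directions follow the sample titles and would turn round if the stored names were right. The libraries labelled C4-2 held 163126630 and 119080520 sense tags over named genes, against 58925680 and 70459588 in those labelled LNCaP. As a share of the totals that the RPKM values imply, that is 67.7% and 69.4% in C4-2 against 31.0% and 35.7% in LNCaP. Luminal prostate markers summed to 3400 and 3360 CPM (sense tags relative to the TMM-scaled library size) in C4-2 and to 2840 and 2860 CPM in LNCaP, with all 9 detected. The 3 basal markers KRT5, KRT14 and TP63 summed to at most 0.203 CPM in C4-2 and 0.0706 CPM in LNCaP. The 4 fibroblast markers summed to 3.79 and 4.04 CPM in C4-2 and to 8.02 and 9.73 CPM in LNCaP, with COL1A2 at 0 tags. The 3 immune markers summed to 1.54 and 1.38 CPM in C4-2 and 1.55 and 1.99 CPM in LNCaP, with CD3E at 0 tags, and the 3 endothelial markers to 3.62 and 3.38 CPM in C4-2 and 4.56 and 4.25 CPM in LNCaP. The part of these marker differences and of the exon share in the results below was not tested.

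Of the 46 ABC genes, 38 had enough tags for the test (edgeR quasi-likelihood test, called at an adjusted p under 0.05). Among them 16 were higher in C4-2 than in LNCaP, 15 were lower and 7 did not pass. The called share of 81.6% lay near the 80.0% called among all 15975 genes tested, where 40.2% had higher and 39.7% had lower levels. Without the read-through entry ABCF2-H2BK1, which shares tags with ABCF2, 15 of 37 tested members were higher and 15 lower. Changes of at least 2-fold were called upward for 6 members and downward for 12, beside 11.7% and 18.1% of all tested genes. The 15 lower members and these 12 include ABCD2, with 0 tags in C4-2, which met the filter for testing through its LNCaP libraries alone. The median log2 fold change (C4-2 over LNCaP) of the tested members was -0.02, and that of all tested genes was -0.01. The members' median was the same with the 0-tag gene ABCD2 at the value that its floor gives. For 33 of the 38 tested members (86.8%) the C4-2 libraries lay wholly above or wholly below the LNCaP libraries, against 89.9% of all tested genes. When libraries were scaled to the totals behind RPKM instead of by TMM, the median of all genes moved up by 1.016 and 24 members were called higher and 9 lower, so that 72.7% of the members' calls were higher in place of 51.6%. Directions are therefore relative to the typical gene.

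**Figure D1:**
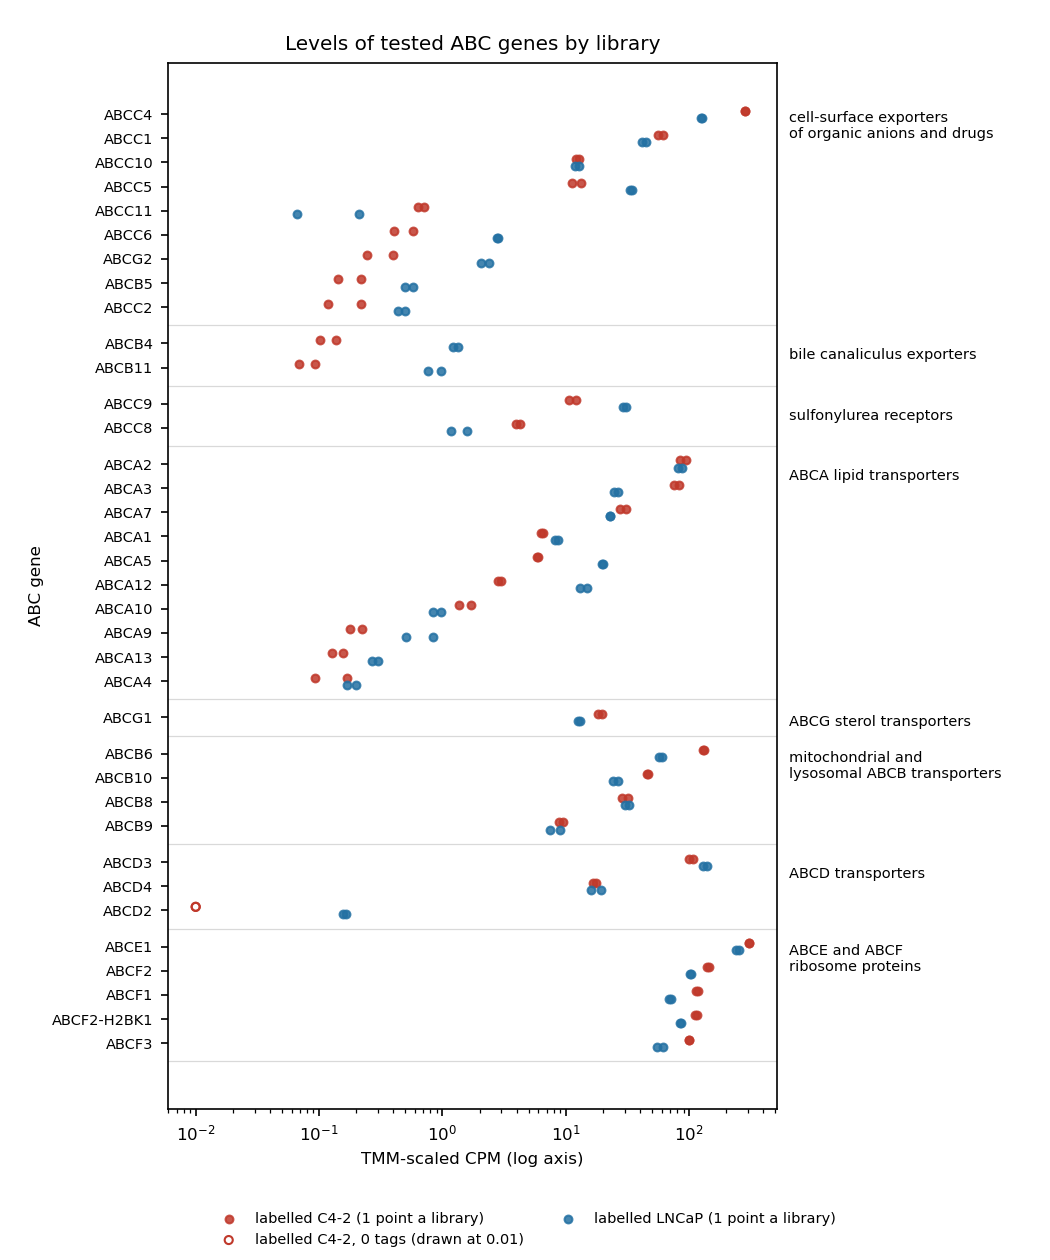
Level of 36 tested ABC genes in each library, as TMM-scaled CPM on a log axis, grouped by role. Libraries labelled C4-2 are red and those labelled LNCaP blue, 2 points each. ABCC4 stands at 281 and 282 CPM in C4-2 against 127 and 125 CPM in LNCaP, while ABCB4, ABCB11 and ABCG2 lie lower in C4-2 at low levels.

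ABCC4 had the highest level of the exporters in both lines. The gene lies on hg19 chromosome 13 from 95672083 to 95953687 on the minus strand. It had 281 and 282 CPM in the libraries labelled C4-2, against 127 and 125 CPM in those labelled LNCaP. The libraries of a line lay close together and the lines did not overlap. ABCC4 was 2.24-fold higher in C4-2 (log2 fold change 1.16 ± 0.041 SE, adjusted p = 1.13e-07). Per length, it averaged 48.2 CPM per kb of exon in C4-2 and 21.5 CPM per kb in LNCaP. Among the 45 members left when the read-through entry ABCF2-H2BK1 is set aside, it took 11.2% and 11.5% of the summed CPM per kb in C4-2 and 6.97% and 6.91% in LNCaP. It ranked 2 by that level in both C4-2 libraries, after the ribosome recycling factor ABCE1, and 5 and 6 in the LNCaP libraries.

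A short ABCC4 transcript (NM_001105515), whose exons start at the same end of the gene, carried tags at nearly the same density as the long transcript (NM_005845). The ratio of short to long in tags per base was 0.97 and 0.96 in C4-2 and 0.922 and 0.938 in LNCaP. Both lines thus had similar tag densities over the exons of the short and of the long transcript.

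None of the 7 other tested genes whose span reached within 1 Mb of ABCC4, chosen by distance after its value was seen, was called higher in C4-2. TGDS had 17.4 and 17.8 CPM in C4-2 against 35.1 and 33.3 CPM in LNCaP, and GPR180 had 32.8 and 31.7 CPM in C4-2 against 62.3 and 58.8 CPM in LNCaP. Both were lower in C4-2, at log2 fold changes of -0.96 and -0.91. DZIP1, 343 kb beyond the ABCC4 start, was lower as well at -3.98 ± 0.18 (SE, adjusted p = 3.68e-07). DNAJC3, UGGT2, HS6ST3 and GPC6 did not pass the test, at 0.01, -0.08, 0.67 and -0.09. Of all tested genes, 40.2% were called higher and 39.7% lower. DCT, SOX21, CLDN10 and CLDN10-AS1 had from 0 to 5 tags a library and were not tested.

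**Figure D2:**
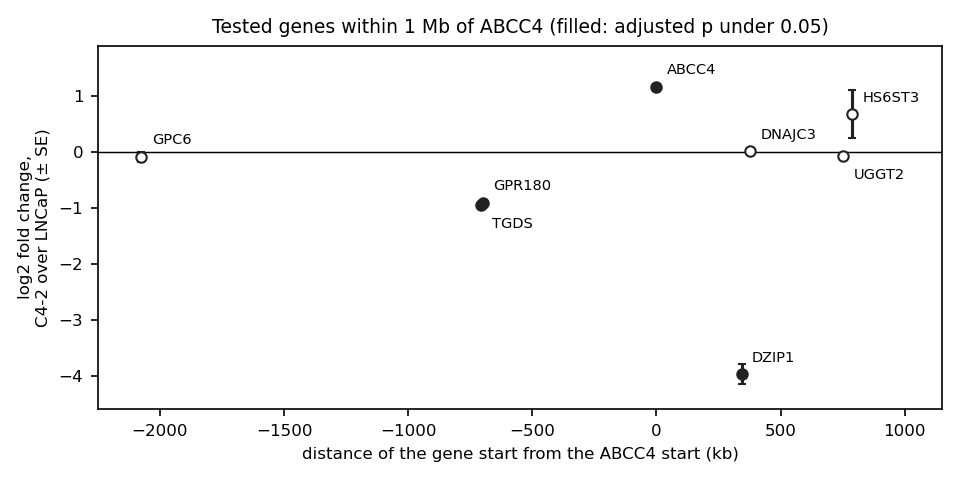
Log2 fold change (C4-2 over LNCaP, ± SE) of ABCC4 and the 7 tested genes whose span reached within 1 Mb of it, by the distance of each gene's start from the ABCC4 start in kb. Filled points passed at an adjusted p under 0.05. ABCC4 is the point above 1, TGDS and GPR180 lie near -1 and DZIP1 near -4.

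The start regions of 4 members differ in base composition. ABCC4 and ABCB6 are the members at least 2-fold higher in C4-2 with the highest levels, ABCC5 is the one at least 2-fold lower with the highest level, and ABCB11 had the lowest fold change among members with tags in both lines. Each is the RefSeq sequence from 250 bases before to 50 bases after the gene start (GRCh38.p14), 5′ to 3′ on the gene's strand, with CG dinucleotides in capitals. ABCC4 lies at chr13:95301402-95301701, ABCB6 at chr2:219218909-219219208, ABCC5 at chr3:184017835-184018134 and ABCB11 at chr2:169031275-169031574, all on the minus strand.

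ABCC4: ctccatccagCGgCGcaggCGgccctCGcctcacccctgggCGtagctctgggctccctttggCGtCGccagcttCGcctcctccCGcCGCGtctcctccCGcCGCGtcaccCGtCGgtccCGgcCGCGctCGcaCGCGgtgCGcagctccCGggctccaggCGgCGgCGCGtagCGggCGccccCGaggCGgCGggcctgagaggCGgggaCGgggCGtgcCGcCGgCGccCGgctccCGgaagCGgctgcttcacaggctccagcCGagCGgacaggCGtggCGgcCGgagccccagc

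ABCB6: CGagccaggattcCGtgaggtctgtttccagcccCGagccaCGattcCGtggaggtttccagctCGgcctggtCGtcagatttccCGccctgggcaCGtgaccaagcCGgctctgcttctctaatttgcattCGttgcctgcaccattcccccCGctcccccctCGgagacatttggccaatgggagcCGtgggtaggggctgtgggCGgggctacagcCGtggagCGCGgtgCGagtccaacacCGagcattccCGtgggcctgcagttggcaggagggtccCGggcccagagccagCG

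ABCC5: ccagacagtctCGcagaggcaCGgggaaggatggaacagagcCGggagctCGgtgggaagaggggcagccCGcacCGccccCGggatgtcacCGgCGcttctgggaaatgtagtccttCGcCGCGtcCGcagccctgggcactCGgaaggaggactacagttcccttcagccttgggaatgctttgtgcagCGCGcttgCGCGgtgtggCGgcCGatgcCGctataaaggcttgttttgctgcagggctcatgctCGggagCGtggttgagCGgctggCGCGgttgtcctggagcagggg

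ABCB11: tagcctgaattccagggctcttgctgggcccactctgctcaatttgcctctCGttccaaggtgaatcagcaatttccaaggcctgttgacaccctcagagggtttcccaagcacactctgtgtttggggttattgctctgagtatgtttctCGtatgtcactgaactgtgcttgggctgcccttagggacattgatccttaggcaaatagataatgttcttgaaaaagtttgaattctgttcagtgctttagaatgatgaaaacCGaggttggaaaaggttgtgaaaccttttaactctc

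The ABCC4 region held 47 CG dinucleotides and 79.7% G and C, that of ABCB6 23 and 65.7%, that of ABCC5 26 and 65.7%, and that of ABCB11 3 and 45.0%. RefSeq start regions were found for 36 of the 46 members, 54 regions in all. The median G and C content per gene was 67.0% in the 12 members with a region that were higher in C4-2 and 49.7% in the 13 that were lower. Over all genes with a region it was 65.7% for the 5107 called higher and 62.8% for the 4725 called lower. These medians were not tested and not split by level. Of 13 tested members under 3 CPM 9 were lower and 3 higher, and of 15 of at least 30 CPM 11 were higher and 1 lower. The GC box letters GGGCGG, on either strand, were in 48.1% of the members' regions and in 45.0% of all 35116 regions. They occur in those of ABCB6 and ABCC5 and not in that of ABCC4. The core letters of the androgen receptor motif, AGAACA on either strand, were in 18.5% of the members' regions and 14.8% of all regions, among them those of ABCB11 and ABCE1. These are matches of letters, and no test was made on them.

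The other exporters of organic anions and drugs went either way. Of the 12 genes of this group, ABCC4 included, 9 were tested, with 3 higher, 5 lower and 1 not passing. Of the 5 lower ones, all but ABCC5 averaged under 3 CPM, a level at which 51.7% of all tested genes were lower. ABCC1, or MRP1, which exports glutathione conjugates, had 61.8 and 56.3 CPM in C4-2 against 41.5 and 44.4 CPM in LNCaP and was 1.38-fold higher (adjusted p = 2.20e-04). ABCC11, an exporter known from apocrine glands, was 4.64-fold higher on few tags, 114 and 75 in C4-2 against 4 and 15 in LNCaP. Its fold rested on the LNCaP libraries. The log2 fold change was 2.22 with all libraries, 1.67 without LNCaP replicate 1 and 3.32 without LNCaP replicate 2. A long noncoding RNA gene overlaps exons of ABCC11 on the same strand, so its tags may be counted for ABCC11. ABCC10, or MRP7, had 12.7 and 12.2 CPM in C4-2 against 11.8 and 12.9 CPM in LNCaP, which overlapped (log2 fold change 0.01 ± 0.075, adjusted p = 0.92).

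ABCC5, or MRP5, which like ABCC4 exports cyclic nucleotides, ran the other way. It had 11.3 and 13.2 CPM in C4-2 and 34.4 and 33.4 CPM in LNCaP, with no overlap. That is 2.78-fold lower in C4-2 (log2 fold change -1.47 ± 0.080 SE, adjusted p = 8.29e-07). The gene lies on hg19 chromosome 3 from 183637724 to 183735727 on the minus strand. A short ABCC5 transcript (NM_001023587), which ends at 183701541, had 808 and 633 tags in C4-2 and 1429 and 1694 tags in LNCaP. The long transcript (NM_005688) had 1810 and 1558 tags in C4-2 and 2068 and 2366 tags in LNCaP. Per base the short transcript was 1.32 and 1.20 times the long one in C4-2 and 2.05 and 2.12 times in LNCaP. The excess in tags per base of the short transcript was thus larger in both LNCaP libraries, a difference that was not tested. Where along the gene these tags lay was not measured. For the pair of ABCC4 transcripts the ratios of the lines lay within 0.922 and 0.97.

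ABCG2, the breast cancer resistance protein, had 0.243 and 0.398 CPM in C4-2 against 2.06 and 2.39 CPM in LNCaP. It was 7.11-fold lower in C4-2 (log2 fold change -2.83 ± 0.25 SE, adjusted p = 1.47e-05), at levels far under that of ABCC4 in both lines. ABCC2 and ABCB5, drug exporters of liver and of melanoma cells, were lower at -1.50 and -1.60 with at most 0.579 CPM in any library. ABCC2 lost its call without C4-2 replicate 1 (-1.06, adjusted p = 0.057), and ABCB5 stood at -0.92 when the tags of all its transcripts were summed. ABCC6 had 0.579 and 0.407 CPM in C4-2 against 2.81 and 2.77 CPM in LNCaP, 5.57-fold lower. Its counted transcript (NM_001079528) has 718 bases of exon and its values are uncertain, since the pseudogene ABCC6P2 held almost as many tags, 80 and 41 in C4-2 and 163 and 182 in LNCaP, beside 93 and 48 in C4-2 and 169 and 196 in LNCaP for ABCC6. The full transcript (NM_001171) with 5120 bases of exon had no more than 152 tags in any library. ABCB1, the multidrug transporter P-glycoprotein, had 11 and 2 tags in C4-2 against 2 and 1 in LNCaP and was not tested. ABCC3 had from 4 to 8 tags a library and ABCC12 none, where a count of 0 allows up to 3.

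**Figure D3:**
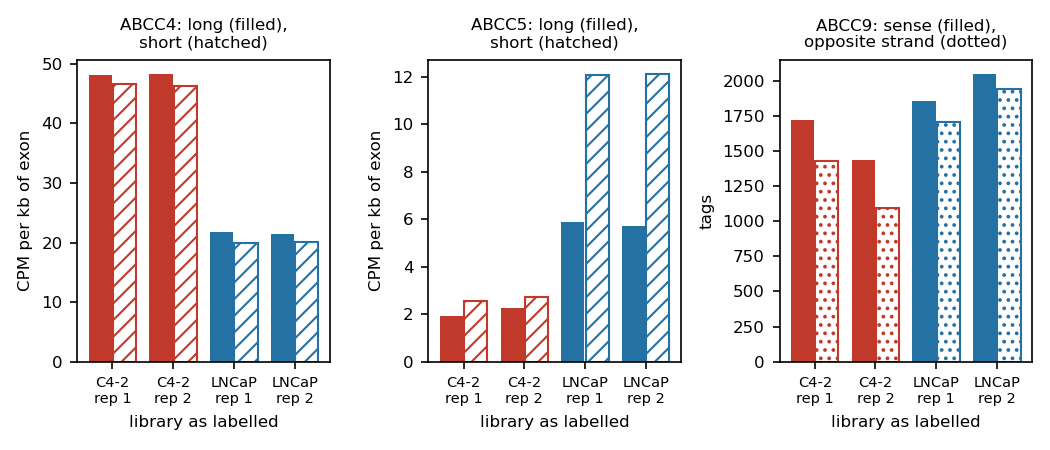
Left and middle, CPM per kb of exon of the long (filled) and short (hatched) transcripts of ABCC4 and ABCC5 in each library. Right, tags of ABCC9 on its own strand (filled) and on the opposite strand (dotted). The short ABCC5 transcript stands at 1.32 and 1.20 times the density of the long one in C4-2 and at 2.05 and 2.12 times in LNCaP, and the opposite strand of ABCC9 holds from 76.1% to 94.8% as many tags as its own.

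The transporters of the bile canaliculus were both lower in C4-2. ABCB4, which moves phosphatidylcholine, had 0.137 and 0.102 CPM in C4-2 against 1.33 and 1.21 CPM in LNCaP and was 10.4-fold lower (adjusted p = 8.62e-06). ABCB11, the bile salt export pump, had 11 and 11 tags in C4-2 against 59 and 54 tags in LNCaP. That is a level ratio of 10.9 for LNCaP over C4-2 with a counting interval of 6.88 to 18.1. Neither gene exceeded 1.33 CPM in any library.

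The sulfonylurea receptors regulate ATP-sensitive potassium channels. Counts of their 2 genes went opposite ways, but what those of ABCC9 measure is uncertain. ABCC8, or SUR1, had 4.24 and 3.97 CPM in C4-2 against 1.18 and 1.58 CPM in LNCaP and was 2.95-fold higher (log2 fold change 1.56 ± 0.16 SE, adjusted p = 3.08e-05). The channel gene KCNJ11, whose product pairs with SUR1, was also higher in C4-2, at 1.06 ± 0.090. ABCC9, or SUR2, had 10.7 and 12.2 CPM in C4-2 against 30.9 and 28.9 CPM in LNCaP, a log2 fold change of -1.39 ± 0.077. The ABCC9 tags were not spread over the gene and were deposited for both strands. How tags were given a strand is not stated in the sources used here, so what the counts on either strand stand for is uncertain. Opposite to the gene lay 1428 and 1094 tags in C4-2 and 1705 and 1940 in LNCaP, beside 1721 and 1437 sense tags in C4-2 and 1855 and 2046 in LNCaP. The other ABCC9 transcript (NM_005691), whose exons begin at 21958108 on hg19 chromosome 12, had 0 and 2 tags in C4-2 and 3 and 0 in LNCaP. Nearly all tags counted for NM_020297 therefore lay outside the exons of NM_005691. Outside them NM_020297 reaches on to 21950324, where GENCODE v44 lifted to hg19 places a last exon of 3793 bases from 21950323 to 21954115. Long noncoding RNA genes overlap exons of ABCC9 on the same strand and on the opposite strand. Their tags may be counted for ABCC9, so its fold change may not be that of the receptor mRNA, which was not tested.

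Lipid transporters of the ABCA group had members moving either way, with 3 of 10 tested genes higher, 5 lower and 2 not passing. ABCA3, which loads phospholipid into lamellar bodies of lung cells, had 82.5 and 75.9 CPM in C4-2 against 24.6 and 26.7 CPM in LNCaP. It was 3.09-fold higher (log2 fold change 1.63 ± 0.065 SE, adjusted p = 1.79e-07), the largest rise of a member above 1 CPM in both lines. ABCA7, a phospholipid transporter, was 1.27-fold higher, and ABCA2, of endosomes and lysosomes, had 94.3 and 83.7 CPM in C4-2 against 81.6 and 86.6 CPM in LNCaP and did not pass (adjusted p = 0.26). ABCA12, the lipid transporter of the skin barrier, had 2.83 and 2.97 CPM in C4-2 against 14.9 and 13.0 CPM in LNCaP, 4.81-fold lower (log2 fold change -2.27 ± 0.099 SE, adjusted p = 2.89e-07). ABCA5, a lysosomal member, had 5.97 and 5.85 CPM in C4-2 against 19.9 and 19.8 CPM in LNCaP, 3.36-fold lower (adjusted p = 1.66e-07).

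ABCA1, which passes cholesterol to apolipoprotein A-I, had 6.49 and 6.31 CPM in C4-2 against 8.60 and 8.15 CPM in LNCaP. Its log2 fold change of -0.39 ± 0.084 (adjusted p = 0.0029) turned to 0.62 with library totals, where it was called higher. ABCG1, which passes cholesterol to lipoprotein particles, had 19.8 and 18.1 CPM in C4-2 against 12.6 and 13.0 CPM in LNCaP and was 1.48-fold higher. The other sterol transporters hardly had tags: ABCG5 and ABCG8 had at most 2 a library, and ABCG4 had 0 in C4-2 and 6 and 4 in LNCaP, and none of the 3 was tested.

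On chromosome 17, ABCA5, ABCA10, ABCA6, ABCA9 and ABCA8 lie side by side on the minus strand. ABCA10, next to ABCA5, was 1.68-fold higher in C4-2 with 1.36 and 1.70 CPM against 0.982 and 0.833 CPM in LNCaP. Its call ended without C4-2 replicate 2 (0.60, adjusted p = 0.051), and its transcript overlaps that of ABCA5 on the same strand, so tags of either gene may be counted for the other. ABCA9 was lower at -1.70 with 36 and 21 tags in C4-2 and 50 and 36 in LNCaP, and it had 28 and 21 tags in C4-2 and 34 and 40 in LNCaP on the opposite strand, where ABCA9-AS1 overlaps it. ABCA6 and ABCA8 had at most 1 tag in any library. Other members that neighbour each other also differed. ABCC1 was higher and ABCC6, 78 kb away on chromosome 16, was lower, and ABCF3 was higher while ABCC5, 168 kb away on chromosome 3, was lower. ABCA4, a retinal transporter, did not pass (-0.44, adjusted p = 0.39). The call of ABCA13 (-0.98, from 15 to 25 tags a library) ended in 9 of the 10 other settings in which it was tested, the exception being both strands together.

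**Figure D4:**
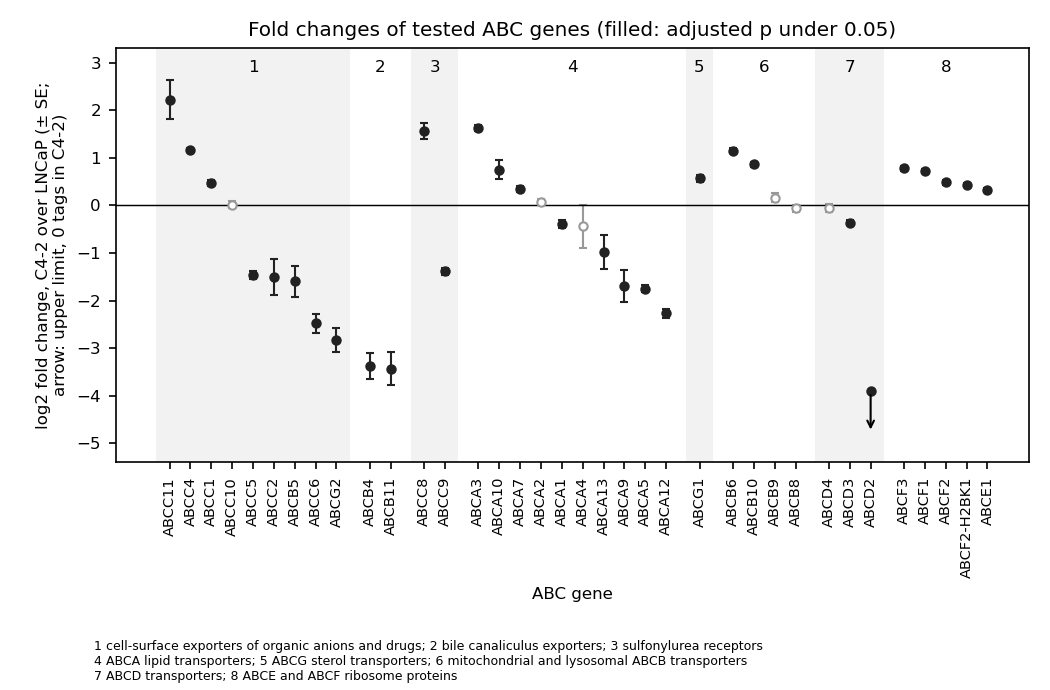
Log2 fold change (C4-2 over LNCaP) of 36 tested ABC genes with SE, grouped by role. Filled points passed at an adjusted p under 0.05 and open points did not. The arrow marks ABCD2, with 0 tags in C4-2, drawn at -3.9. That value takes a floor of 3 tags in C4-2 and leaves out the counting error of the LNCaP tags. All 4 separately measured ribosome proteins, and the ABCF2-H2BK1 entry that shares tags with ABCF2, lie above 0 and both bile canaliculus exporters under -3.

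Among the mitochondrial and lysosomal ABCB transporters, ABCB6 and ABCB10 were higher in C4-2. ABCB6, linked to porphyrin transport, lies on hg19 chromosome 2 from 220074488 to 220083712 on the minus strand. It had 132 and 129 CPM in C4-2 against 56.5 and 60.7 CPM in LNCaP and was 2.22-fold higher (log2 fold change 1.15 ± 0.047 SE, adjusted p = 2.19e-07). Another protein-coding gene overlaps exons of ABCB6 on the same strand, so its tags may be counted for ABCB6. ABCB10, a mitochondrial transporter needed for haem synthesis, had 45.3 and 46.3 CPM in C4-2 against 24.2 and 26.3 CPM in LNCaP, 1.81-fold higher. ABCB8 of the inner mitochondrial membrane (-0.06) and the lysosomal peptide transporter ABCB9 (0.16) did not pass. ABCB8 stood at 0.94 with library totals, where it was called higher. Of 16 partner genes of haem and iron-sulfur metabolism 7 were higher, 5 lower and 4 did not pass (median 0.05). Among all tested genes 40.2% were higher and 39.7% lower. The chaperone gene HSPA9 and ALAS1, the first enzyme of haem synthesis, were higher at 0.67 and 0.56, and the scaffold genes ISCU and LYRM4 were lower at -0.55 and -0.77.

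The ABCD genes described here are transporters of peroxisomes and lysosomes. ABCD3, which takes up branched-chain and dicarboxylic acids, had 16075 and 12750 tags in C4-2 against 8348 and 9223 tags in LNCaP, a mean of 104 ± 5.7 CPM in C4-2 and 135 ± 6.1 CPM in LNCaP (SD, n = 2 each). It was 1.29-fold lower (adjusted p = 2.68e-04), and stood at 0.64 with library totals, where it was called higher. ABCD2, a peroxisomal fatty acid transporter, had 0 tags in both C4-2 libraries against 10 and 11 in LNCaP. With a floor of 3 tags over both C4-2 libraries it was 14.9-fold lower, a value that leaves out the counting error of the LNCaP tags. ABCD2 met the filter for testing through its LNCaP libraries alone. It was not tested without either of them or under the stricter filter. ABCD4, a lysosomal cobalamin transporter, averaged 17.0 ± 0.71 CPM in C4-2 and 17.5 ± 2.1 CPM in LNCaP (SD, n = 2 each), with overlapping libraries, and did not pass (edgeR adjusted p = 0.63). Of 17 genes of peroxisomal import and fatty acid oxidation 11 were higher, 4 lower and 2 did not pass (median 0.32). Among all tested genes 40.2% were higher and 39.7% lower. The oxidation gene HSD17B4 and the acyl-CoA synthetase gene ACSL3 were higher at 0.93 and 0.88, and PHYH, of phytanic acid breakdown, was lower at -0.89.

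The ABCE and ABCF proteins, which lack membrane domains, were higher in C4-2 for all 4 genes measured separately, by 1.26-fold to 1.72-fold. ABCE1, which splits ribosomes for reuse, had 306 and 307 CPM in C4-2 against 251 and 238 CPM in LNCaP (log2 fold change 0.33 ± 0.044 SE, adjusted p = 1.70e-04). At 73.1 CPM per kb in C4-2 and 58.2 CPM per kb in LNCaP it led the family in every library. ABCF2, a cytosolic relative, had 146 and 139 CPM in C4-2 against 101 and 103 CPM in LNCaP, 1.40-fold higher. ABCF2-H2BK1 is a read-through entry over the same gene and its values, 116 and 112 CPM in C4-2 against 84.3 and 85.5 CPM in LNCaP, rest on the same tags and add no separate evidence. ABCF1, which binds initiation factor eIF2, and ABCF3 were 1.65-fold and 1.72-fold higher. Of 10 partner genes of these proteins in translation 8 were higher, 1 was lower and 1 did not pass (median 0.44). The kinase gene EIF2AK4, its activator GCN1 and the release factor genes GSPT1 and GSPT2 stood at 1.08, 1.03, 0.93 and 0.74. The 4 ABCE and ABCF genes and most partners averaged at least 30 CPM, a level at which 53.7% of all tested genes were higher and 32.8% lower.

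Calls ran differently at high and low levels, a split chosen after the values were seen. Of the 15 tested members with a mean of at least 30 CPM over the libraries, 11 were higher in C4-2 and 1, ABCD3, was lower. The 15 and the 11 include ABCF2-H2BK1, which shares tags with ABCF2. In all 6420 tested genes of at least 30 CPM 53.7% were higher and 32.8% lower. Of the 13 members under 3 CPM, 3 were higher and 9 lower, where 17.0% and 51.7% of 4288 tested genes were. Of the 10 members in between 2 were higher and 5 lower, against 42.7% and 38.4% of 5267 genes. So a lean to higher calls at high level and to lower calls at low level was seen in all tested genes too.

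Genes that act with these transporters were read from lists, beside which 40.2% of all tested genes were higher and 39.7% lower. Of ABC proteins with other symbols, the peptide transporter genes TAP1 and TAP2 were higher at 0.93 and 0.31, and CFTR, a chloride channel gene, was lower at -2.90 with at most 0.396 CPM in any library. In the list of sterol efflux control and acceptors 7 of 14 tested genes were higher and 5 lower (median 0.17). There the lipoprotein receptor gene SCARB1 and the sterol regulator gene SREBF2 were higher at 1.32 and 1.20, and NPC2, of lysosomal cholesterol, was lower at -1.24. Genes of prostaglandins and cyclic nucleotides, substrates of ABCC4, were higher for 12 and lower for 5 of 23 tested (median 0.23). ADCY1, an adenylyl cyclase gene, and the phosphodiesterase genes PDE4D and PDE9A were higher at 1.33, 1.34 and 0.86, as was the prostaglandin E synthase gene PTGES2 at 0.96. The 5 lower genes of the list, named after their values were seen, were the cyclooxygenase genes PTGS1 and PTGS2, the prostaglandin receptor genes PTGER1 and PTGER4 and the phosphodiesterase gene PDE4C. PTGS1 had 0.79 and 0.703 CPM in C4-2 against 2.26 and 2.19 CPM in LNCaP, PTGER4 stood at -0.62 and PDE4C at -0.88. PTGS2 had 2 and 0 tags in C4-2 against 15 and 15 in LNCaP, and PTGER1 had 0 and 0 tags in C4-2 against 8 and 10 in LNCaP. Among sensors and conjugating enzymes for foreign compounds 5 of 12 tested were higher and 5 lower (median 0.04), with the glutathione transferase gene GSTA1 higher at 3.41, GSTM3 and GSTO1 lower at -1.23 and -0.88 and GCLC, of glutathione synthesis, lower at -1.31. GSTA1 and GSTM3 have close paralogs, so their tags are uncertain. NHERF1, a scaffold of membrane transporters, was higher at 1.09, and PDZK1, another scaffold, was lower at -3.24 with at most 0.155 CPM and more tags on the opposite strand than on its own. In bulk RNA of a line, fewer cells that express a gene and less RNA per cell cannot be told apart.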

How the data were processed

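Total RNA of LNCaP and C4-2 cells was sequenced, with 2 libraries per line, and samples were grouped by title. The kit named in the labels' protocols, Illumina TruSeq RNA Sample Prep, does not mark strand as a standard step, and how the deposited tags were given a strand is not stated, so sense and opposite-strand counts are taken as deposited. Per the submitters' processing notes, TopHat2 2.0.6 and Bowtie were used with hg19 (GRCh37). In the tables that the authors deposited, each of 41351 RefSeq transcript entries has counts of tags and RPKM, given by strand in the file headers. The counting tool is not given in the sources used here.

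Of 40304 accessions, 38974 were matched to symbols in a GRCh38.p14 RefSeq table, used for names only. Unnamed transcripts held 2.06% to 2.15% of sense tags and were left out, and opposite-strand tags made up 1.18% to 1.80%. Each gene was represented by its transcript with most sense tags, as a mean over library shares. Library totals and exon lengths were recovered from the deposited RPKM values. Counts were tested with edgeR 4.0.16 (R 4.3.3, quasi-likelihood, filterByExpr, TMM, line as the only term), with Benjamini-Hochberg adjustment over all 15975 tested genes. SE is the absolute log2 fold change over the root of F. CPM uses TMM-scaled totals of named genes. The test was checked on simulated counts in which few genes changed. That check does not cover data like these, where 80.0% of tested genes were called. Some genes that enter the counts are not reported here by name. DESeq2 1.42.0 was an alternative.

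Values in every library are given for ABCC4, the 5 members with the highest mean RPKM, called members at least 2-fold changed with 1 CPM or more in a line, and called members at 0 tags in a line. For each related list, up to 4 genes with the smallest adjusted p are named, others only where said. Members, lists and roles were chosen with earlier results of these data known. Nothing tells whether the libraries of a line are separate cultures, so p-values cover only the spread of these samples, possibly a technical one. Replicates differed by more than sampling noise (chi-square per degree of freedom 12.6 in C4-2 and 24.6 in LNCaP). Intervals and floors cover counting error only, at 95%, and a floor covers that of the line at 0 tags only.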

Additional observations from a re-analysis of the deposited data

Results flagged for a closer look

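How tags were given a strand is not stated in the sources used here, and the named kit does not mark it, so the meaning of opposite-strand counts is uncertain. Tags on the strand opposite to a member were not part of the comparisons, and 3 members had at least 50% as many of them as sense tags in every library, with at least 10 a library. ABCC9 had 1428 and 1094 opposite tags in C4-2 and 1705 and 1940 in LNCaP, between 76.1% and 94.8% of its sense tags. ABCA9 had 28 and 21 in C4-2 and 34 and 40 in LNCaP, from 68.0% to 111% of its sense tags. ABCA13 had 24 and 13 in C4-2 and 27 and 32 in LNCaP, from 86.7% to 168%. Over all 46 members, opposite tags came to 0.861% and 0.831% of sense tags in C4-2 and to 2.76% and 2.60% in LNCaP. Most of these opposite tags were those of ABCC9 in every library, so the shares describe that gene more than the family.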

How the results depend on the processing

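Scaling to the library totals behind RPKM changed most. It gave 24 members higher and 9 lower, and 11626 of all genes higher and 1664 lower, in place of 16 and 15 and of 6429 and 6346. With it ABCA1 (0.62), ABCA13 (0.01), ABCA4 (0.55), ABCB8 (0.94), ABCD3 (0.64) and ABCD4 (0.95) changed sign, and ABCA9, ABCB5 and ABCC2 lost their calls; the scale shift of 1.016 is of that size. ABCC4 (2.17), ABCC5 (-0.46) and ABCG2 (-1.83) held direction and call. ABCA2 (-0.0006) and ABCC10 (-0.07), which did not pass with the settings of the report, changed sign under the stricter filter. When 1 library at a time was left out, ABCB8 spanned -0.14 to 0.03, ABCC10 -0.05 to 0.08 and ABCD4 -0.16 to 0.09, crossing 0 without C4-2 replicate 2 (ABCB8 at 0.03, ABCD4 at 0.0021), C4-2 replicate 1 (ABCC10 at -0.01), LNCaP replicate 1 (ABCC10) and LNCaP replicate 2 (ABCD4). Calls gained in the same way were ABCB9 (0.30, adjusted p = 0.004) and ABCA2 (0.13, adjusted p = 0.029) without LNCaP replicate 2, ABCA2 (0.17, adjusted p = 0.038) without C4-2 replicate 2 and ABCD4 (-0.16, adjusted p = 0.032) without LNCaP replicate 1, by edgeR. Library totals also gave calls for ABCA2 (1.08), ABCB9 (1.16) and ABCC10 (1.01), and for ABCB8 and ABCD4 after their change of sign. ABCA1 and ABCD3, called lower with TMM, were called higher with library totals (edgeR adjusted p = 2.12e-05 and 1.55e-07). Leaving out 1 library gave 16 to 18 members higher and 13 to 14 lower, and for all genes 5962 to 6574 higher and 5683 to 6196 lower. The fit with a replicate block called 16 members higher and 14 lower, ABCA13 being the call it lost (adjusted p = 0.053), and 6260 and 6141 of all genes. Same-numbered libraries did not deviate together (r = -0.09999 across genes), so the numbers were taken not to pair samples. No filter, DESeq2, summed transcripts and both strands gave 16 members higher and 14 to 16 lower, and the stricter filter 15 and 10 of 30 tested. Depth limits ABCB1, ABCC3, ABCC12, ABCG4, ABCG5, ABCG8, ABCA6 and ABCA8, which had too few tags for the test.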
